A study of Mus musculus with 4 samples.

Results

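The genes described here are 10 mouse transcription factors of the BTB zinc finger type, among them Zbtb32 and Zbtb16, which encodes PLZF. They were chosen by name, as all probe sets whose gene symbol in the platform annotation is 1 of the 10. That gave 32 probe sets for the 10 genes, of 45037 probe sets and 18193 genes tested. Both groups were CD8 T cells sorted from spleens of B6 mice of wild-type genotype. The Ly49+ group (CD44+CD122+Ly49+, called CD8 Treg in the labels) and the Ly49- group (CD44+CD122+Ly49-, called conventional memory type) had 2 arrays each. The question put to the arrays here is how these factors differ between the populations. The labels give no treatment, no age and no word on whether the replicates came from separate mice, so a p-value here weighs only differences among these samples, and their spread may be technical.

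BTB zinc finger proteins pair through an N-terminal BTB domain and bind DNA through C-terminal zinc fingers. The BTB domain of many members recruits corepressors such as the NCoR proteins and histone deacetylases, and PLZF also binds the ubiquitin ligase scaffold Cul3. In lymphocytes several members set cell fate: ThPOK, encoded by Zbtb7b, directs the CD4 lineage, PLZF directs innate-like T cells such as natural killer T cells, and Zbtb32 is induced when T and B cells are activated.

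Values are linear intensities of Affymetrix probe sets as deposited. Differences are in log2(intensity + 16), Ly49+ minus Ly49-, tested with limma on each probe set and adjusted over all 45037, unless the fit over 18193 genes (the brightest probe set of each) is named. A call is an adjusted p below 0.05. A probe set with group means below 68.4, the highest group mean among 27 probe sets for Bacillus controls, is called near background. Array medians lay between 188.5 and 190.4 and pairwise correlations between 0.996 and 0.998. Precision is limited by having 4 arrays. On the array Ly49- replicate 1, the older probe set AFFX-BioB-3_at for a spiked control read 702, against 2750 to 3084 on the other arrays, while the newer probe set for the same control read 2833 to 3111 on all arrays. The T-cell marker list, which includes Cd8a and Cd8b1, had 0 of 11 measured genes called in limma (2 at an unadjusted p under 0.05), with a median difference of -0.04. Of all genes, 3.97% were called. The smallest p in that list were those of Cd247 (log2 fold change -0.12), Lat (-0.09), Thy1 (-0.07) and Cd3e (0.09). In a sorted population, fewer cells expressing a gene and less RNA per cell cannot be told apart.

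Zbtb32 was the only member that passed the test, and it was lower in Ly49+ cells. Its protein, also known as ROG, restrains T-cell proliferation and cytokine genes, and is known as a repressor of GATA-3. The RefSeq promoter windows of Zbtb32 (GRCm38.p6) are the sequence shown here because it is the gene that moved. Windows run from 250 bases before to 50 after a start site, and 9 of the 10 members have one. The window of the more upstream of its 2 starts, chr7:30598860-30599159 on the minus strand, is printed 5′ to 3′ with CCAAT, the CCAAT-box motif bound by NF-Y, in capitals.
Zbtb32: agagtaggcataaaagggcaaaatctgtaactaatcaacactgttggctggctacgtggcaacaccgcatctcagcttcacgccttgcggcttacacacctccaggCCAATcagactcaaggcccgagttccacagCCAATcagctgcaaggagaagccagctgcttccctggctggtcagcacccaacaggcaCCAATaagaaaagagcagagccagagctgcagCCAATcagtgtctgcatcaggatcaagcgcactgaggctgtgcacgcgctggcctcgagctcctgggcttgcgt
The script found CCAAT 4 times, all on the strand of the gene, with first bases at -144, -114, -56 and -24 from the start, searching both strands. It was not found in the other Zbtb32 window, chr7:30592893-30593192. Of all 32851 windows, 37.4% held at least 1 CCAAT and 3.37% held 3 or more. The E-box CACGTG, the AP-1 motif TGANTCA and the GATA motif AGATAA were not found in either window, and they occur in 7.15%, 7.81% and 11.2% of all windows. The 4 matches do not overlap each other. The motifs were chosen after the sequence was seen, and a match is a description of these letters, not a binding site.

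The brighter Zbtb32 probe set (1432459_a_at) read 149 and 166 on the Ly49+ arrays, against 352 and 310 on the Ly49- arrays. The groups did not overlap, and the higher Ly49+ array lay well under the lower Ly49- array. Means were 158 ± 11.9 in Ly49+ and 331 ± 29.5 in Ly49- cells (SD, n = 2 each), a log2 fold change of -0.999 ± 0.12 (SE) and a 2.00-fold lower level in Ly49+ cells (95% interval of the log2 difference -1.29 to -0.71, limma adjusted p = 0.019). In the limma fit over genes the adjusted p was 0.0030, and the fall ranked 19 of 18193 genes by size. The other Zbtb32 probe set read 25.7 and 21.6 in Ly49+ against 27.2 and 26.1 in Ly49- cells, near background in both groups, and gives no size. In the fit over probe sets, Zbtb32 missed the threshold when any 1 array was left out: the limma adjusted p was 0.098 and 0.087 on leaving out Ly49+ replicate 1 or 2, and 0.13 and 0.11 on leaving out Ly49- replicate 1 or 2. In the fit over genes it failed to pass when Ly49- replicate 1 (adjusted p = 0.065) or replicate 2 (0.0501) was left out, and the log2 fold change stayed between -1.09 and -0.91. With the mean of the gene's probe sets, which takes in the probe set near background, the log2 fold change was -0.55 (adjusted p = 0.019).

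Members were called in 1 of 32 probe sets, or 3.125%, against 1.19% of all probe sets. Of all probe sets, 0.429% were called lower and 0.766% higher. In the fit over genes 1 of 10 members was called, against 3.97% of all genes, with 2.04% called lower. With so few members, 1 call is a result about Zbtb32 and not about the group. Of the 32 probe sets, 9 had an unadjusted p under 0.05, against 13.3% of all probe sets, and 20 (62.5%) had groups that did not overlap, against 44.9% of all probe sets. Of the 32, 11 did not overlap with Ly49+ higher, against 15.7% of all probe sets, and 9 with Ly49+ lower, against 29.1%. The 32 probe sets are not independent, since 9 of them read Zbtb20.

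**Figure D1:**
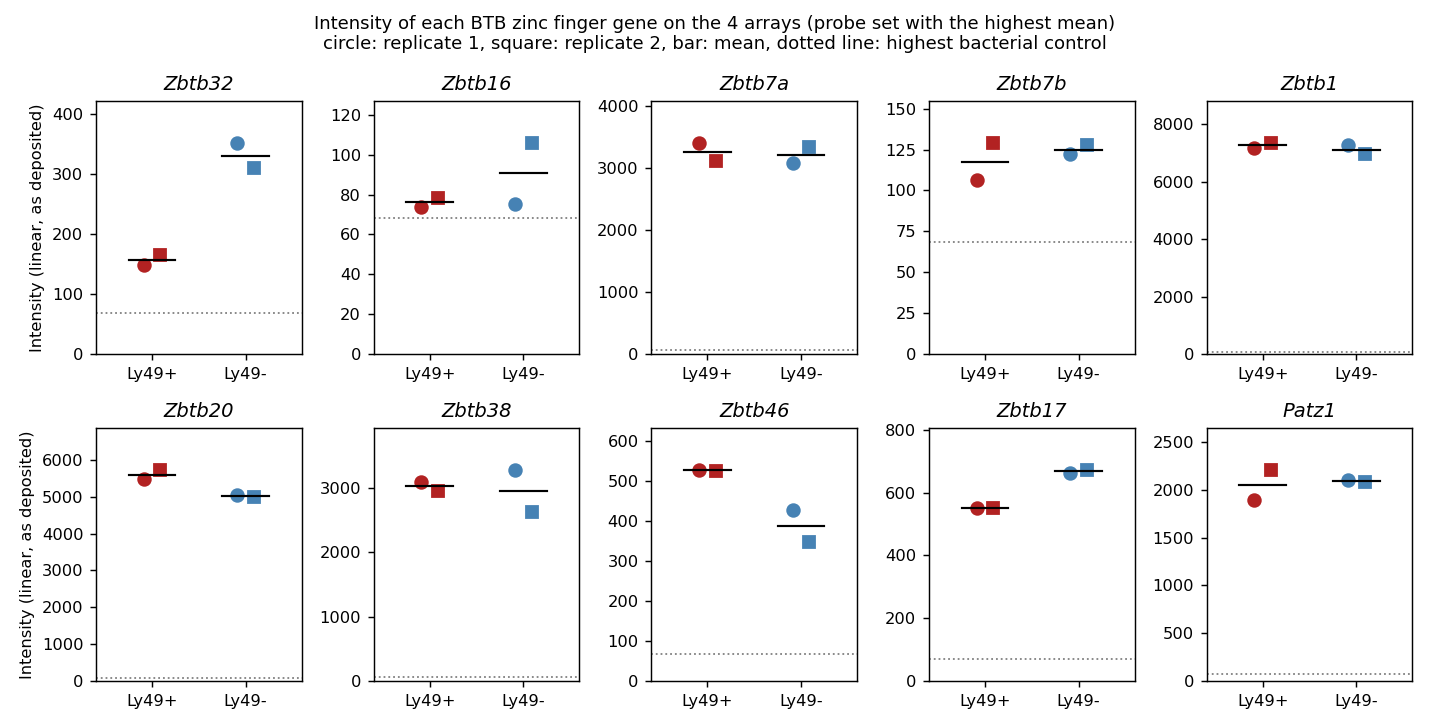
Linear intensity of the 10 genes on each array, read by the probe set of each gene with the highest mean. Red points are Ly49+ arrays and blue points Ly49- arrays, circles are replicate 1 and squares replicate 2, bars are group means, and the dotted line is the highest bacterial control mean (68.4). Zbtb32 at 149 and 166 in Ly49+ against 352 and 310 in Ly49- cells shows the largest ratio between group means, and Zbtb16 lies just above the control.

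Zbtb16, whose product PLZF is the factor of natural killer T and other innate-like T cells, was read at or near background. Its brightest probe set (1419874_x_at) gave 73.9 and 78.1 in Ly49+ against 75.4 and 105.8 in Ly49- cells. The groups overlapped, and only the second Ly49- array stood clearly above the control level of 68.4. The log2 fold change was -0.20 (95% interval -0.55 to 0.16, adjusted p = 0.62), and its suffix marks probes that can pick up further transcripts. The other 2 Zbtb16 probe sets were near background in both groups, reading 38.4 and 38.9 in Ly49+ against 47.5 and 41.3 in Ly49- cells, and 20.0 and 23.2 against 30.3 and 26.5. Both pairs were lower in Ly49+ with no overlap, at levels where no size is given (adjusted p = 0.55 and 0.27).

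Zbtb7b, which encodes ThPOK, the factor that commits thymocytes to the CD4 lineage and silences CD8-lineage genes, was dim and did not pass. Its probe sets read 106 and 129 in Ly49+ against 122 and 128 in Ly49- cells, and 84.1 and 93.4 against 73.3 and 86.0. In each the groups overlapped, with log2 fold changes of -0.08 (95% interval -0.38 to 0.22) and 0.13 (-0.15 to 0.41). Patz1, known as MAZR, represses the Cd8 genes and Zbtb7b in developing T cells. Its brighter probe set read 1897 and 2211 in Ly49+ against 2106 and 2083 in Ly49- cells, where the Ly49+ arrays bracketed both Ly49- arrays (log2 fold change -0.03, interval -0.23 to 0.17, adjusted p = 0.91). The dimmer one was lower on both Ly49+ arrays, at 238 and 258 against 267 and 318, and did not pass (-0.22, interval -0.52 to 0.08, adjusted p = 0.50).

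Zbtb7a encodes LRF, which acts with ThPOK in CD4 cells and steers progenitors between the B and T lineages, and its 3 probe sets gave different readings. The brightest read 3397 and 3112 in Ly49+ against 3069 and 3332 in Ly49- cells, with overlapping groups (log2 fold change 0.02, interval -0.14 to 0.19). The probe set 1450093_s_at was lower without overlap, at 322 and 339 against 424 and 467, with a log2 fold change of -0.41 (interval -0.66 to -0.16) that did not pass (unadjusted p = 0.0058, adjusted p = 0.16). The third read 279 and 277 in Ly49+ against 271 and 275 in Ly49- cells, a log2 fold change of 0.03. By its suffix, 1450093_s_at can pick up transcripts of more than this gene.

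Zbtb1, which is needed for lymphocyte development, and Zbtb38, which binds methylated DNA, did not pass in any probe set. The brighter Zbtb1 probe set read 7190 and 7349 in Ly49+ against 7280 and 6963 in Ly49- cells, a log2 fold change of 0.03 with an interval of -0.08 to 0.14, while the dimmer read 912 and 950 against 1088 and 991 (-0.16, interval -0.36 to 0.05). The 3 Zbtb38 probe sets had log2 fold changes of 0.04, 0.03 and 0.06, with intervals that together ran from -0.20 to 0.29. The brightest Zbtb38 probe set read 3097 and 2946 in Ly49+ against 3280 and 2620 in Ly49- cells, so both Ly49+ arrays lay between the Ly49- arrays.

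Zbtb17 encodes Miz-1, the partner through which Myc represses genes and which T- and B-cell precursors need to respond to interleukin 7. It was lower in both probe sets without passing. The brighter read 549.6 on each Ly49+ array, against 662 and 673 on the Ly49- arrays, so the groups did not overlap and each was tight. The log2 fold change was -0.27 (interval -0.48 to -0.07, unadjusted p = 0.016, adjusted p = 0.25). The dimmer probe set, near background in both groups, read 37.0 and 38.6 against 48.0 and 45.7.

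Zbtb20, a repressor known from the liver and brain that also supports long-lived plasma cells, was read higher in Ly49+ cells by all of its 9 probe sets, none of which passed. These probe sets measure the same RNA on the same arrays and are not replicates. The log2 fold changes ran from 0.09 to 0.41 with a median of 0.15, and in 7 of the 9 the groups did not overlap. Of all probe sets, 44.9% had groups that did not overlap, and 15.7% did so with Ly49+ higher. The brightest probe set read 5477 and 5731 in Ly49+ against 5050 and 4998 in Ly49- cells (log2 fold change 0.16, interval 0.04 to 0.27, adjusted p = 0.23). The largest difference was in 1451577_at, at 579 and 686 against 471 and 473 (0.41, interval 0.15 to 0.66, adjusted p = 0.18). The adjusted p in the fit over genes was 0.11, and 0.18 with the mean of the 9 probe sets, whose log2 fold change was 0.19.

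Zbtb46, a factor that among blood cells is known as a marker of classical dendritic cells, was higher in its brightest probe set without passing. That probe set read 528 and 525 in Ly49+ against 429 and 348 in Ly49- cells. Both Ly49+ arrays lay above both Ly49- arrays, and the spread was within the Ly49- group (log2 fold change 0.43, interval 0.15 to 0.72, adjusted p = 0.20, or 0.085 in the fit over genes). The second probe set read 154 and 151 against 162 and 149, with overlapping groups (-0.02, interval -0.29 to 0.25). Another, near background in both groups, read 58.9 and 71.4 against 40.4 and 51.5, and the last, also near background, overlapped. Of 11 measured dendritic cell markers, Xcr1, Irf8 and H2-Ab1 rose, 0 fell and the other 8 missed the threshold. Their median was 0.22, with a summed intensity of 33769 to 35473 in Ly49+ against 33600 to 35339 in Ly49- cells. The largest parts of that sum were Dpp4 (means 13738 against 14908) and Ccr7 (10436 against 12331), neither of which passed. The sum therefore mostly follows these genes and says little about the dimmer markers. Of 13 macrophage and monocyte markers, 10 were higher and 2 lower, against 1.93% and 2.04% of all genes. Their median was 0.57, with a summed intensity of 19186 to 20799 in Ly49+ against 14094 to 14272 in Ly49- cells. Lyz2 (1.13), C1qb (0.64), Csf1r (0.57) and C1qc (0.77) had the smallest p, and the 2 that fell were S100a9 (-0.53) and S100a8 (-0.49). Leaving out Ly49- replicate 2 left 1 dendritic cell and 1 macrophage call, Ly49- replicate 1 left 1 and 2, Ly49+ replicate 2 left 2 and 4, and Ly49+ replicate 1 left 3 and 7. Cd209a, Clec10a and Itgam were near background in both groups, and Itgax, which encodes CD11c, differed by -0.17 (adjusted p = 0.27). Flt3, another dendritic cell marker, differed by 0.40 (limma adjusted p = 0.086 in the fit over genes). The part of these cells in the Zbtb46 reading was not tested.

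**Figure D2:**
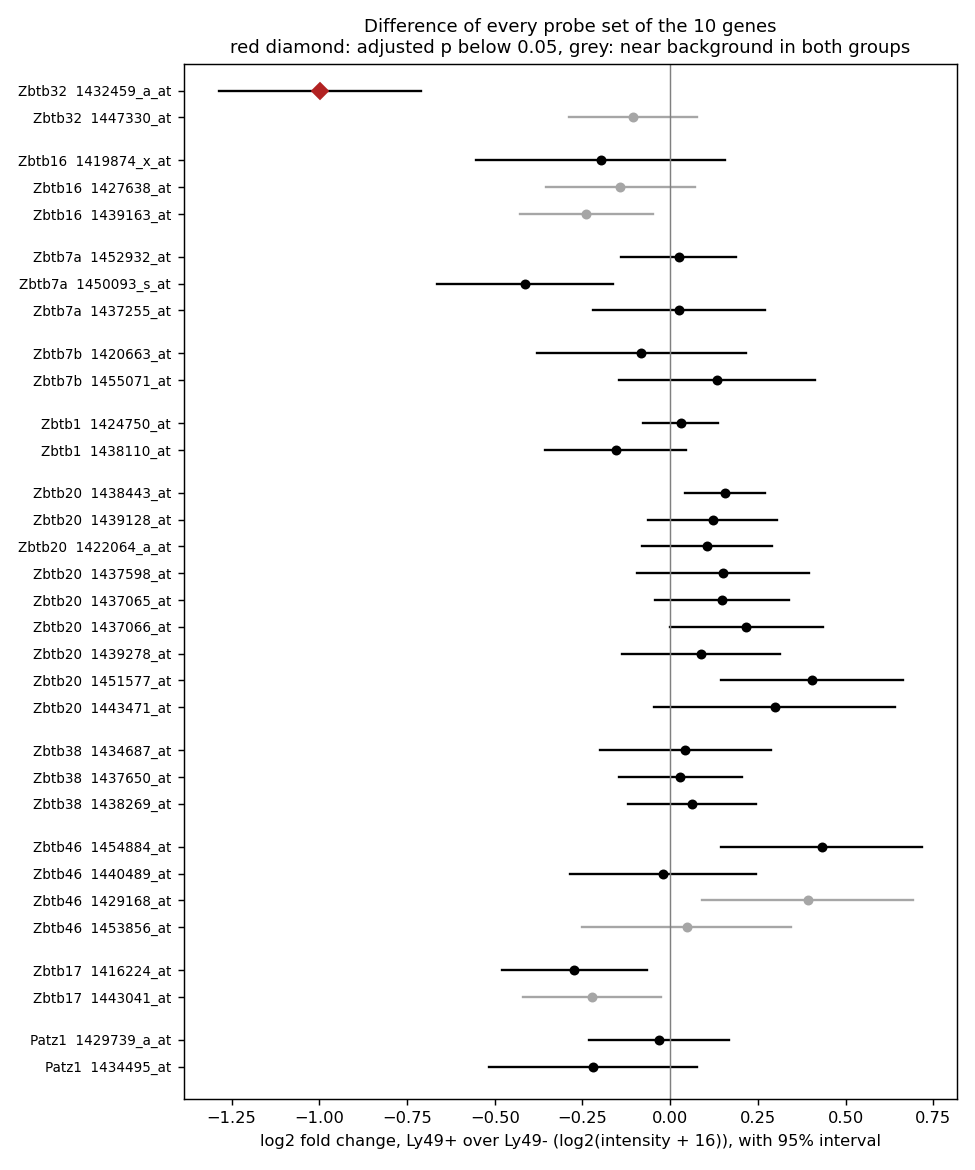
Log2 fold change (Ly49+ over Ly49-) of each of the 32 probe sets with its 95% interval, grouped by gene and ordered by mean intensity within a gene. The red diamond, the brighter Zbtb32 probe set at -0.999, is the only one past the threshold, and grey marks the 6 probe sets near background in both groups.

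**Figure D3:**
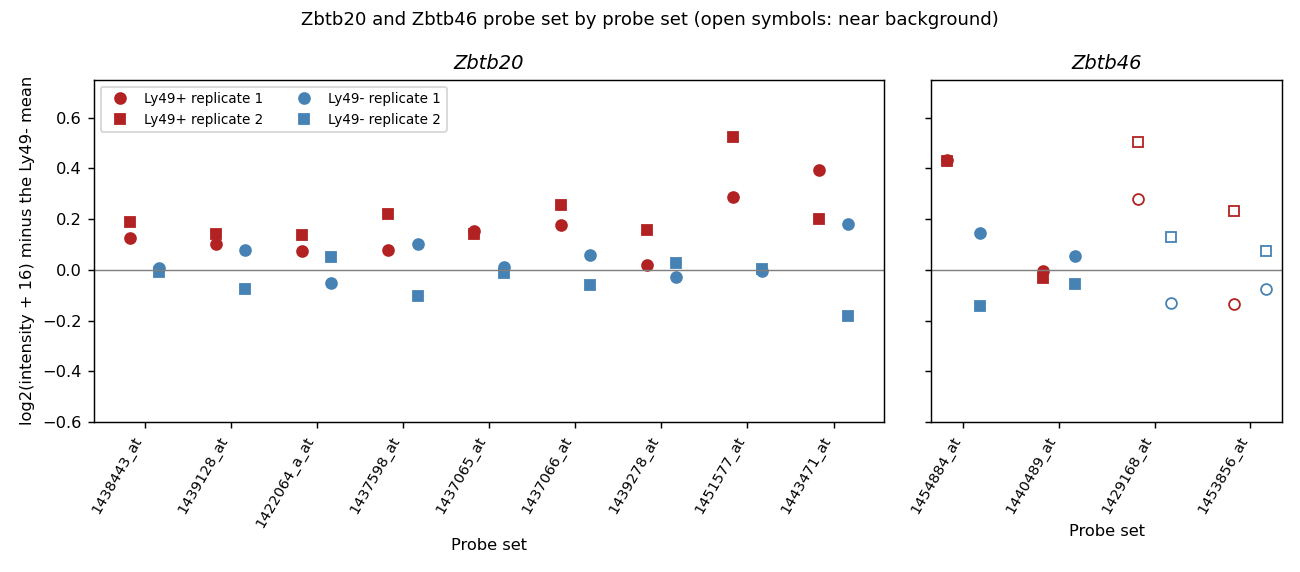
Each array's log2(intensity + 16) minus the Ly49- mean for the 9 probe sets of Zbtb20 and the 4 of Zbtb46, with Ly49+ in red and Ly49- in blue, circles for replicate 1 and squares for replicate 2, and open symbols near background. In 7 of the 9 Zbtb20 probe sets both Ly49+ points lie above both Ly49- points, as in 15.7% of all probe sets. The 4 Zbtb46 probe sets differ among themselves.

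The rest of the family showed no call. Of 39 other BTB zinc finger genes, 37 were measured, with 9 at an unadjusted p under 0.05 (18.1% of all genes had one). Limma called 0 of the 37 in the fit over genes, against 3.97% of all genes. Their median log2 fold change was -0.04, the same as that of all genes, and the 10 members had a median of -0.00. Zbtb10 had the largest difference, at 831 and 819 in Ly49+ against 695 and 510 in Ly49- cells (log2 fold change 0.46, adjusted p = 0.10), and its other 2 probe sets went opposite ways without passing. One read 521 and 509 in Ly49+ against 421 and 391 in Ly49- cells, and the dimmest read 99.7 and 97.9 against 123 and 118 (log2 fold change -0.25). Zbtb6 was read at 2125 and 2080 against 2588 and 2377 (-0.24, adjusted p = 0.082), with no overlap. Zbtb18, which is also known as RP58, differed by 0.18 (adjusted p = 0.12) and Zbtb48, a telomere-binding protein, by -0.27 (0.15). Bcl6, the factor of follicular helper T cells and germinal centre B cells, read 1689 and 1611 against 1508 and 1310 (0.23, adjusted p = 0.18).

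Of 21 measured corepressor genes through which BTB domains act, 1 rose, none fell and 20 did not pass, against 3.97% of all genes called. Differences ran from -0.12 to 0.33 with a median of 0.00, and 5 of the 21 had an unadjusted p under 0.05, against 18.1% of all genes. Chd4, the helicase of the NuRD corepressor complex, was the one that rose, at 5028 and 4999 in Ly49+ against 4418 and 4052 in Ly49- cells (log2 fold change 0.24, limma adjusted p = 0.043 in the fit over genes). It missed the threshold on leaving out any 1 array (adjusted p between 0.069 and 0.25) and without a trend of the spread (0.18), and the mean of its probe sets gave -0.02 (0.91). Cul3 differed by -0.02, Hdac3 by -0.02 and Bcor by -0.01. Ctbp2 differed by 0.33 (adjusted p = 0.17), Mta3 by -0.12 (0.18) and Hdac4 by 0.14 (0.20).

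Of 12 measured genes that Zbtb32 is known to bind with or repress, 1 rose and 11 did not pass, with a median of -0.02, against 3.97% of all genes called. An unadjusted p under 0.05 was reached by 4, with Ciita and Eomes higher and Il4 and Il2 lower, against 18.1% of all genes. Ciita, the master activator of MHC class II genes, which Zbtb32 and Blimp-1 repress as B cells become plasma cells, read 306 and 307 in Ly49+ against 197 and 210 in Ly49- cells (log2 fold change 0.55, limma adjusted p = 0.023 in the fit over genes). It missed the threshold on leaving out any 1 array (adjusted p between 0.13 and 0.14) and when its probe sets were averaged (0.092). On the same arrays 5 of 13 B-cell markers rose and 1 fell, with a list median of 0.28 and a summed intensity of 52822 to 56056 in Ly49+ against 40619 to 40967 in Ly49- cells. Those that rose were Cd22 and the MHC class II genes H2-Ab1, H2-Aa, H2-Eb1 and Cd74, Cd79b fell, and Pax5 and Fcer2a were near background in both groups. The largest parts of the sum were Cd74 (means 15924 in Ly49+ against 10110 in Ly49- cells) and Ighm (14015 against 14929), which did not pass. The sum therefore mostly follows Ighm and the MHC class II genes, of which H2-Ab1 is also in the dendritic cell list. The part of B cells or myeloid cells in the Ciita reading was not tested. Gata3, which encodes GATA-3, read 2938 and 2673 against 2761 and 2642 (0.05, adjusted p = 0.73). That is a level of RNA and not a measure of GATA-3 activity. Prdm1, which encodes Blimp-1, differed by -0.16 (0.60) and Cd27 by -0.00 (0.98). Eomes read 7773 and 7453 against 6794 and 6985 (0.14, adjusted p = 0.12). Il4 differed by -0.30 (0.19), near background in Ly49+ cells, and Il2 by -0.28 (0.27).

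Zbtb32 is induced by activation, and the genes of activated effector T cells were mixed. Of 16 measured, 6 fell, 1 rose and 9 did not pass, against 2.04% of all genes lower and 1.93% higher. The list median was -0.16, against -0.04 for all genes. Among those that did not pass, Nfil3 differed by 0.44, Tnfrsf9 by 0.18, Il2ra by 0.18, Id2 by 0.14 and Tbx21 by 0.10. The rest of those that did not pass pointed lower, Irf4 at -0.32 and Batf, Tnfrsf4 and Prdm1 at -0.16 each. Ctla4 (-1.44), Pdcd1 (-1.02) and Lag3 (-0.71) were among the 6 that fell. The list was written with earlier results of these data known and is not independent evidence of a direction. Gzmk read 168 and 211 in Ly49+ against 824 and 1016 in Ly49- cells (log2 fold change -2.19, limma adjusted p = 1.3e-04). Klrg1 read 114 and 189 against 467 and 772 (-1.92, adjusted p = 0.0046), and Gzmb, which encodes the protease granzyme B, read 989 and 1152 against 2066 and 3001 (-1.21, 0.0039). The gene that rose was Havcr2, which encodes TIM-3, at 392 and 426 against 218 and 231 (0.82, 0.0043). Klrg1 failed to pass when Ly49- replicate 2 was left out (adjusted p = 0.092), when no trend was fitted (0.051) and under a robust spread (0.14). Gzmb failed with no trend (0.0501) and under a robust spread (0.10), and Havcr2 when Ly49- replicate 1 (0.070) or 2 (0.065) was left out. Against 7 calls of this list over all arrays, 2 were made on leaving out Ly49- replicate 2, 3 on leaving out Ly49- replicate 1 and 6 on leaving out either Ly49+ array. Of 11 cell cycle genes 10 fell and 1 did not pass, with a median of -0.53. On leaving out Ly49- replicate 2 the count was 0, on leaving out Ly49- replicate 1 it was 4, and on leaving out either Ly49+ array it was 6. Among them Birc5 fell by 0.48, Nusap1 by 0.57, Ccna2 by 0.53 and Tpx2 by 0.68 on the log2 scale. Each of these 4 failed to pass on leaving out Ly49- replicate 2 (adjusted p between 0.055 and 0.059). Tpx2 also failed on leaving out Ly49- replicate 1 (0.065), and the means of all probe sets gave -0.25 (0.19) for Nusap1 and -0.31 (0.13) for Tpx2. Whether the level of Zbtb32 is tied to activation or cycling in these cells was not tested. Plasma cells, another site of Zbtb32, were represented by 8 markers, of which Igha fell (622 to 642 in Ly49+ against 1222 to 1557 in Ly49- cells, log2 fold change -1.11, adjusted p = 0.0015) and 7 did not pass. Sdc1, which encodes CD138, differed by -0.23 (0.47), Jchain by 0.08 (0.55) and Derl3 by 0.12 (0.70).

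**Figure D4:**
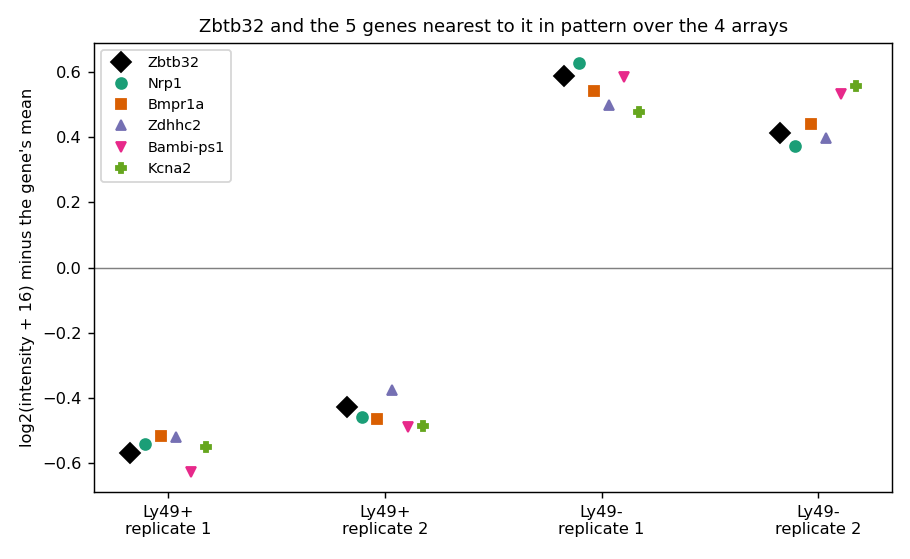
Each array's log2(intensity + 16) minus the gene's mean over the 4 arrays, for Zbtb32 and the 5 genes nearest to it in pattern. All 6 genes lie below their mean on both Ly49+ arrays and above it on both Ly49- arrays.

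Among 9090 other genes of at least median intensity, the genes nearest to Zbtb32 by the root mean square difference of centred log2 values over the 4 arrays were Nrp1, Bmpr1a, Zdhhc2, Bambi-ps1 and Kcna2. Nrp1, which encodes the coreceptor neuropilin-1, was nearest with a difference of 0.035, reading 276 and 293 in Ly49+ against 640 and 533 in Ly49- cells. Bmpr1a, a receptor for bone morphogenetic proteins, differed by 0.042, at 314 and 326 against 670 and 625. Zdhhc2, an enzyme that attaches palmitate to proteins, followed at 0.058, Bambi-ps1 at 0.072 and the potassium channel gene Kcna2 at 0.096. With 4 arrays of which 2 make each group, this likeness says little more than that these genes fell by a similar amount. Zbtb32 and Zbtb16 lie below the median intensity themselves, so genes as dim as they are were not candidates. For Zbtb16, whose spread lies near background, the nearest were Chpf2, Adal, Mllt1, Tecpr2 and Atat1, at 0.026 to 0.035, and none of them passed the test.

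Of 18 measured innate-like T-cell genes, among which PLZF acts, none rose, 1 fell and 17 did not pass. The median was 0.04, and 5 of the 18 had an unadjusted p under 0.05, against 18.1% of all genes. Of all genes, 3.97% were called, 1.93% higher and 2.04% lower. Slamf1, a receptor of the SLAM family that supports natural killer T-cell development, fell at 492 and 479 in Ly49+ against 871 and 808 in Ly49- cells (log2 fold change -0.77, limma adjusted p = 0.0026 in the fit over genes, 0.059 without Ly49- replicate 1). Sh2d1a, which encodes the SLAM adaptor SAP, differed by 0.14 (adjusted p = 0.098) and Icos by -0.16 (0.11). Il18r1 differed by 0.03 and Egr2, which induces PLZF in natural killer T cells, by 0.20 (adjusted p = 0.59). Of 11 NK-cell markers, 6 rose, none fell and 5 did not pass, with a median of 0.61. They were led by Klre1 (2.21), Cd244a (1.26), the adaptor Fcer1g (1.22) and Klrk1 (0.76), and Ncr1 was near background in both groups. Gzma, which encodes granzyme A, pointed the other way at 2181 and 3116 in Ly49+ against 3916 and 6509 in Ly49- cells, with no overlap, and just missed the threshold (-0.95, adjusted p = 0.052). Of 4 gamma-delta T-cell markers, Trgv1 rose by 1.56 and Cd163l1 fell by 0.30, a fall that missed the threshold on leaving out any 1 array (adjusted p between 0.067 and 0.20) and without a trend (0.15). Sox13 differed by -0.17 (adjusted p = 0.46) and Il17a was near background in both groups. The list held 8 genes, of which Tcrg-C1, Tcrg-C2, Trdc and Trgv2 were not measured.

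Factors of the CD4 and CD8 lineages, among which ThPOK and MAZR act, showed no call. Of 15 measured genes, limma called 0 in the fit over genes, against 3.97% of all genes, and the median was -0.01. An unadjusted p under 0.05 was found for 1, against 18.1% of all genes. Runx3, the factor of the CD8 lineage that opposes ThPOK, read 5134 and 5163 in Ly49+ against 4674 and 5143 in Ly49- cells (log2 fold change 0.07, interval -0.05 to 0.19). Tox had the smallest p, at 4148 and 3865 against 3764 and 3135 (0.22, adjusted p = 0.21), and Runx1 differed by -0.16 (0.29), Cd8b1 by -0.07 (0.30) and Satb1 by 0.08 (0.38). Of 6 CD4 T-cell markers 0 passed, with 2 at an unadjusted p under 0.05. These were Foxp3, at 123 and 123 against 151 and 179 (-0.38, adjusted p = 0.14), and Cxcr5, at 1665 and 1806 against 1913 and 2261 (-0.26, 0.15). Cd4 read 133 and 148 in Ly49+ against 147 and 140 in Ly49- cells.

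Beside Zbtb17, partners and targets of Miz-1 showed 1 rise among 14 measured genes, with a median of 0.04. Of all genes, 1.93% were called higher. Mxd1, a Myc antagonist that pairs with Max, rose at 2788 and 2646 in Ly49+ against 2156 and 2080 in Ly49- cells (log2 fold change 0.36, limma adjusted p = 0.012 in the fit over genes). It missed the threshold on leaving out any 1 array (adjusted p between 0.067 and 0.13), when no trend was fitted (0.068) and for the average of its probe sets (0.19). Myc read 10842 and 10392 against 9430 and 10137 (0.12, adjusted p = 0.22). Topbp1 differed by -0.10 (0.29), Bcl2 by 0.07 (0.43), and Il7r, which encodes the interleukin 7 receptor, by -0.01 (interval -0.09 to 0.07).

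**Figure D5:**
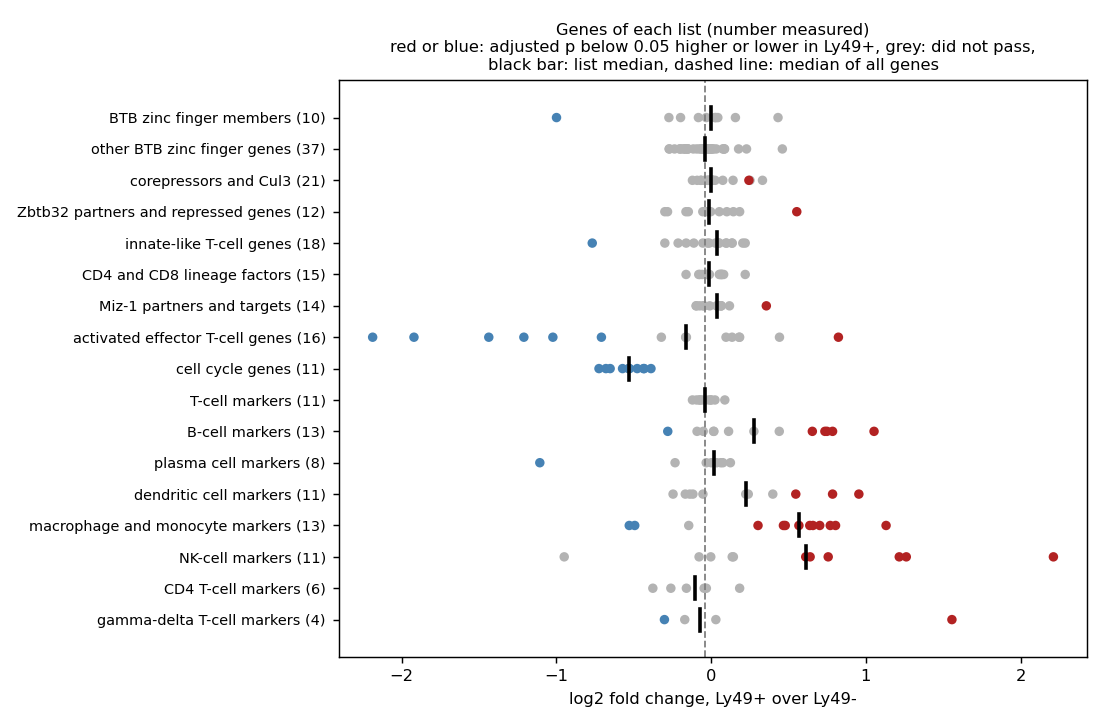
Log2 fold change (Ly49+ over Ly49-) of the measured genes of each list in the fit over genes, with red and blue for genes called higher and lower in Ly49+, grey for genes that did not pass, a black bar for the list median and a dashed line for the median of all genes (-0.04). Zbtb32 is the blue point of the first row, the 37 other BTB zinc finger genes hold no call, and the cell cycle list lies to the left at a median of -0.53.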

How the data were processed

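Intensities of 4 one-colour Affymetrix arrays (total RNA, RNeasy kit, biotin label, per the labels' protocols) were used as deposited by the authors. They are linear intensities per probe set, ran from 8.32 to 43959, and had quartiles within 0.04 on the log2 scale between arrays. How they were summarised from the probes is not stated in the labels. Groups and replicates were taken from the sample titles. The 45037 probe sets that are not among the 64 controls were tested as log2(intensity + 16) in R 4.3.3 with limma 3.58.1 (eBayes with trend after lmFit, group as the only term, Benjamini-Hochberg adjustment, threshold 0.05). The fit over genes used, of probe sets with 1 gene symbol in the platform annotation (34945), the one with the highest mean of each gene. Gene IDs of 34754 probe sets matched RefSeq (GRCm38.p6), which changed 0 symbols. The test was checked on simulated data with independent normal noise, a spread set by intensity alone and no pairing of replicates. That check bears on how the test runs and not on the calls made here.

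Named were all probe sets of the members, up to 4 genes with the smallest p of each list, every called gene of the family, and the 5 genes nearest to Zbtb32 and Zbtb16. Members and lists were chosen with earlier results of these data known, and further genes are named where they bear on a group, chosen after their values were seen. As alternatives, each array was left out, a replicate block was added, the spread was fitted robustly or with no trend, the pseudocount was 1 or 64, arrays were quantile normalized, features below the median intensity were dropped, probe sets ending in _x_at or _s_at were dropped, and the probe sets of each gene were averaged.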

Additional observations from a re-analysis of the deposited data

How the results depend on the processing

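The number of arrays limits the precision. All of the alternatives kept Zbtb32 lower. The count of called probe sets, 538, was 233 without a trend, 1415 with a replicate block and 31 to 104 with 1 array left out. The members' count of 1 called probe set was 0 in each fit with 1 array left out. The count of called genes, 723, was 370 without a trend, 1533 with a replicate block and 100 to 281 with 1 array left out. The members' count of 1 called gene was 0 among genes at or above the median intensity, which leaves out Zbtb32, 3 with a replicate block, where Zbtb46 (adjusted p = 0.018) and Zbtb20 (0.04999) joined it, and 0 to 1 with 1 array left out. The block also called 4 of the 37 other BTB zinc finger genes. It called 4 of the 18 innate-like T-cell genes (2 higher and 2 lower, with Sh2d1a, Tox and Icos gained), 1 of 15 lineage factors, 5 of 11 dendritic cell markers and 1 of 6 CD4 T-cell markers. In the NK-cell list 1 gene was called lower with the block and with a pseudocount of 1. The labels give the arrays only a shared number, and the deviations of same-numbered arrays from their group means correlated at 0.25 over genes. Leaving out 1 array let the lone array of a group be assumed to vary like the other group. Differences close to 0 changed sign, with 1 array left out, in Zbtb16 (1419874_x_at, -0.40 to 0.0097), Zbtb7a (1452932_at, -0.039 to 0.087), Zbtb7b (1420663_at, -0.21 to 0.041), Zbtb1 (1424750_at, -0.0022 to 0.062), Zbtb38 (1434687_at, -0.12 to 0.20, and 1437650_at, -0.040 to 0.099), Zbtb46 (1440489_at, -0.075 to 0.036, and 1453856_at, -0.14 to 0.23), Patz1 (1429739_a_at, -0.14 to 0.078), Derl3 (-0.010 to 0.26) and Il17a (-0.010 to 0.071). When the probe sets of each gene were averaged, Zbtb7a was at -0.12, Zbtb7b at 0.025, Zbtb1 at -0.063, Chd4 at -0.015 and Satb1 at -0.10. The cause of these changes was not tested.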

Other observations

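A probe set that the annotation gives to both Zbtb38 and E030011O05Rik was left out above. It read 81.6 and 92.9 in Ly49+ against 85.1 and 87.4 in Ly49- cells, with overlapping groups and a log2 fold change of 0.01 (95% interval -0.25 to 0.27).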
